A study of Mus musculus with 4 samples.

Results

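The genes described here are 34 genes of lipid handling, of 19491 genes listed in any of the 4 libraries. They were chosen by name, with earlier results of these data known. They comprise 11 genes of lipid uptake and activation, 8 of droplet storage and breakdown, 6 of efflux with its nuclear receptors and 9 of sterol and fatty acid synthesis, and each was listed in every library. The libraries were 10x single-cell libraries of CD45+ cells from the brain and the dura mater of C57BL/6J mice aged 8 weeks, with 1 library per tissue and condition, taken on day 3 after sham surgery (S3, labelled CT) or after photothrombotic injury (D3, labelled INJ). In photothrombotic injury a dye activated by light through the skull damages the vessels of the meninges and the brain beneath. The sources used here do not state how many mice entered a library, so no spread between mice could be had, no test was made, and every interval covers counting error only.

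Phagocytes take up lipid through scavenger receptors and receptors of the low-density lipoprotein family, carry fatty acids on binding proteins and activate them with coenzyme A. Fatty acids and cholesterol in excess are esterified and kept in droplets coated by perilipins, and cholesterol leaves through ABC transporters whose genes are targets of the liver X receptors. When membrane sterol falls, SREBP2 raises the genes of sterol synthesis, and when it is plentiful INSIG1 holds SREBP2 back. Macrophages that clear dying cells and myelin are known for a large lipid intake.

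Quality filters left 14103 cells, with 2607 to 4439 cells and a median of 8251 to 14271 UMIs per cell in a library. Any pair of libraries shared 0 to 7 cell barcodes. Each cell was put in the class whose marker genes it carried most, and the classes are called X-like for that reason; 1258 cells (8.92%) stayed without a class. Infiltrating macrophage-like cells, gated on Arg1, Gpnmb, Spp1, Fn1, Thbs1 and Hmox1, numbered 953 in the brain at D3, 0 in the brain at S3, 2 in the dura mater at S3 and 6 at D3, so that their values come from 1 library. In a clustering made without the 34 genes, 77.5% of them fell in cluster 35, 13.6% in cluster 20 and 5.46% in cluster 27. All levels below are UMIs per 1000000 UMIs of the class in that library (CPM), and a ratio counts as higher or lower at 2-fold or more, for genes whose UMIs in the compared groups summed to 50 or more.

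The stretches upstream of 4 genes are shown because, in the infiltrating-like macrophages described next, Idi1 and Insig1 were among 5 of 8 synthesis genes at lower levels, Hmgcs1 was among the 3 that were not, and Plin2 was higher. They are RefSeq promoter windows on GRCm38.p6, the 250 bases before the start site, 5′ to 3′ along the gene. Capitals mark every match, on either strand, of 3 motifs: TCACNCCAC, a form of the sterol regulatory element; CCAAT; and ACGTG, the core of the hypoxia response element.
Hmgcs1, chr13:119690101-119690350, + strand: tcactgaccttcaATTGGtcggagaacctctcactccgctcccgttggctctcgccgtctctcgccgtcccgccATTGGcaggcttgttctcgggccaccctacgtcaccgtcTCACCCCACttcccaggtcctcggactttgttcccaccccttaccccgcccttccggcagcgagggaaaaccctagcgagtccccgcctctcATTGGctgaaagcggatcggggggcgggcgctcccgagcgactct
Idi1, chr13:8885356-8885605, + strand: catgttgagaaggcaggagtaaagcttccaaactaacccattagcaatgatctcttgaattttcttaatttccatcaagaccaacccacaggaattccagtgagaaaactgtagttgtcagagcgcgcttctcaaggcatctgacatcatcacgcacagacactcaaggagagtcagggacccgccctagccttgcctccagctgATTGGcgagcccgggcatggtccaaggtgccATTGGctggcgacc
Insig1, chr5:28071162-28071411, + strand: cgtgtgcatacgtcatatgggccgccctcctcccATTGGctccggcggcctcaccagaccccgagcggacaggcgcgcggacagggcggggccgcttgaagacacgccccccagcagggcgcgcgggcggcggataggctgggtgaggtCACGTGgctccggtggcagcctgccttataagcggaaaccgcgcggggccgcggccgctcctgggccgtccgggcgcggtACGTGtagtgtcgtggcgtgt
Plin2, chr4:86670060-86670309, - strand: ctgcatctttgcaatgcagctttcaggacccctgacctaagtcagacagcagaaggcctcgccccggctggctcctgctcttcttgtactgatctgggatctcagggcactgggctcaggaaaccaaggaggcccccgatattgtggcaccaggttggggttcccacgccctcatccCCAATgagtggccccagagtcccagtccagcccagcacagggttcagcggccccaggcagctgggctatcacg

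Windows running from 250 bases before to 50 after a start site were at hand for 23 of the 34 genes. TCACNCCAC was in 1.24% of all 32841 windows of mouse genes and, among the 34 genes, in a window of Acsl1 and of Hmgcs1, where it began 137 bases before the start site. CCAAT was in 37.4% of all windows, in 58.1% of the 31 windows of the 23 genes and in 7 of the 8 windows of synthesis genes. Counted by gene, 16 of the 23 had it in a window, where 11095 of all 27018 genes did. The 16 included all 6 synthesis genes that had a window. ACGTG was in 19.6% of all windows and in 19.4% of the 31 windows. Counted by gene, 5 of the 23 had ACGTG, where 5885 of all 27018 genes did. The 5 were Abca1, Insig1, Mgll, Plin2 and Ppard, but none of the printed Plin2 bases hold it. The motifs and the printed windows were chosen with the expression values known, and a match is a description of letters.

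**Figure D1:**
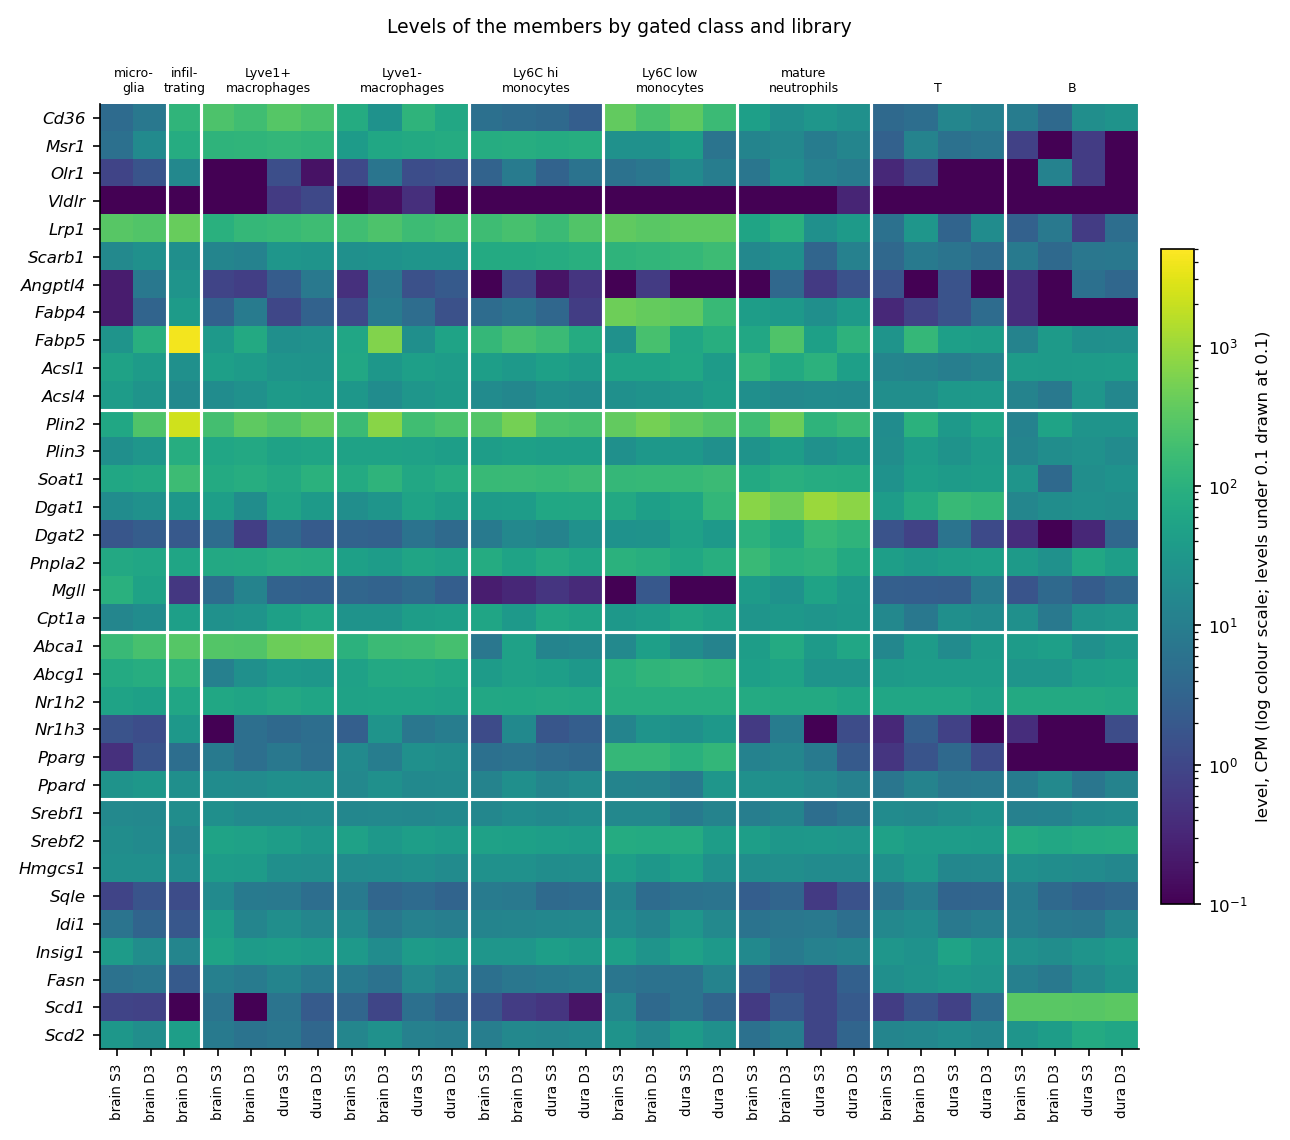
Level of each of the 34 genes (rows, grouped by role) in 9 gated classes of 4 libraries (columns), as CPM on a log colour scale, with levels under 0.1 drawn at 0.1. Fabp5 and Plin2 were brightest in the infiltrating-like macrophages (brain, D3), Dgat1 in neutrophil-like cells, Fabp4 in Ly6C low monocyte-like cells and Scd1 in B-like cells.

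Over all classes with at least 20 cells, Ly6C low monocyte-like cells had the highest level of 9 of the 34 genes in the brain at S3, 6 at D3, 7 in the dura mater at S3 and 8 at D3, with an interval apart from that of the next class for 6, 3, 4 and 4 of them. In the brain at D3 the infiltrating-like macrophages had the highest level of 8 genes, for 3 of them with an interval apart from that of the next class. How often these classes held the highest level among all genes was not counted, so these counts describe the 34 genes only. The Ly6C low gate held 87 cells in the brain at S3, 200 at D3, 41 in the dura mater at S3 and 33 at D3. Fabp4, a fatty acid binding protein, was at 453 CPM in Ly6C low monocyte-like cells of the brain at S3, 382 at D3, 336 in the dura mater at S3 and 148 at D3. In the macrophage-like and Ly6C hi monocyte-like classes it lay between 0.711 and 9.11 CPM outside the infiltrating-like macrophages. Ly6C low monocyte-like cells were thus the high class for Fabp4 in each of the 4 libraries, without overlap with those classes. Pparg, the nuclear receptor that drives fat storage genes, was at 95.5 to 137 CPM in the same cells, and Scarb1, the receptor for high-density lipoprotein, at 116 to 167. Endothelial marker genes were also counted in these cells, summed over 5 genes to 61 to 72.3 CPM, and their part in these values was not tested.

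Dgat1, which makes the last bond of a triglyceride, was at 737 CPM in neutrophil-like cells of the brain at S3, 487 at D3, 976 in the dura mater at S3 and 771 at D3. Immature neutrophil-like cells, a class not plotted, came next in each library. They were at 641 CPM in the brain at S3, 391 at D3, 626 in the dura mater at S3 and 459 at D3. The highest value elsewhere in the classes plotted was 144 CPM, in T-like cells of the dura mater at S3. Dgat2, a second enzyme for the same step, was likewise at 65.6 to 142 CPM in neutrophil-like cells, and at 67.2 to 121 in immature neutrophil-like cells. Scd1, a fatty acid desaturase, was at 297 to 334 CPM in B-like cells and at most 14.2 in the other plotted classes. Among the plotted classes, neutrophil-like and B-like cells therefore held the high values for these enzymes in every library.

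Cd36, a scavenger receptor for oxidised lipoprotein and fatty acids, was at 239 CPM in Lyve1+ macrophage-like cells of the brain at S3, 184 at D3, 293 in the dura mater at S3 and 221 at D3. Ly6C low monocyte-like cells reached 158 to 371 CPM of it, a range that overlaps. Msr1, another scavenger receptor, was at 115 to 131 CPM in Lyve1+ macrophage-like cells. Abca1, which passes cholesterol to lipid-poor apolipoprotein, was at 276 CPM in these cells of the brain at S3, 262 at D3, 443 in the dura mater at S3 and 484 at D3, with both dura libraries above both brain libraries. Mgll, which splits monoglycerides, was at 97.1 CPM in microglia-like cells at S3 and 51.4 at D3, and Vldlr, a receptor for very-low-density lipoprotein, did not exceed 1.04 CPM in any plotted class.

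**Figure D2:**
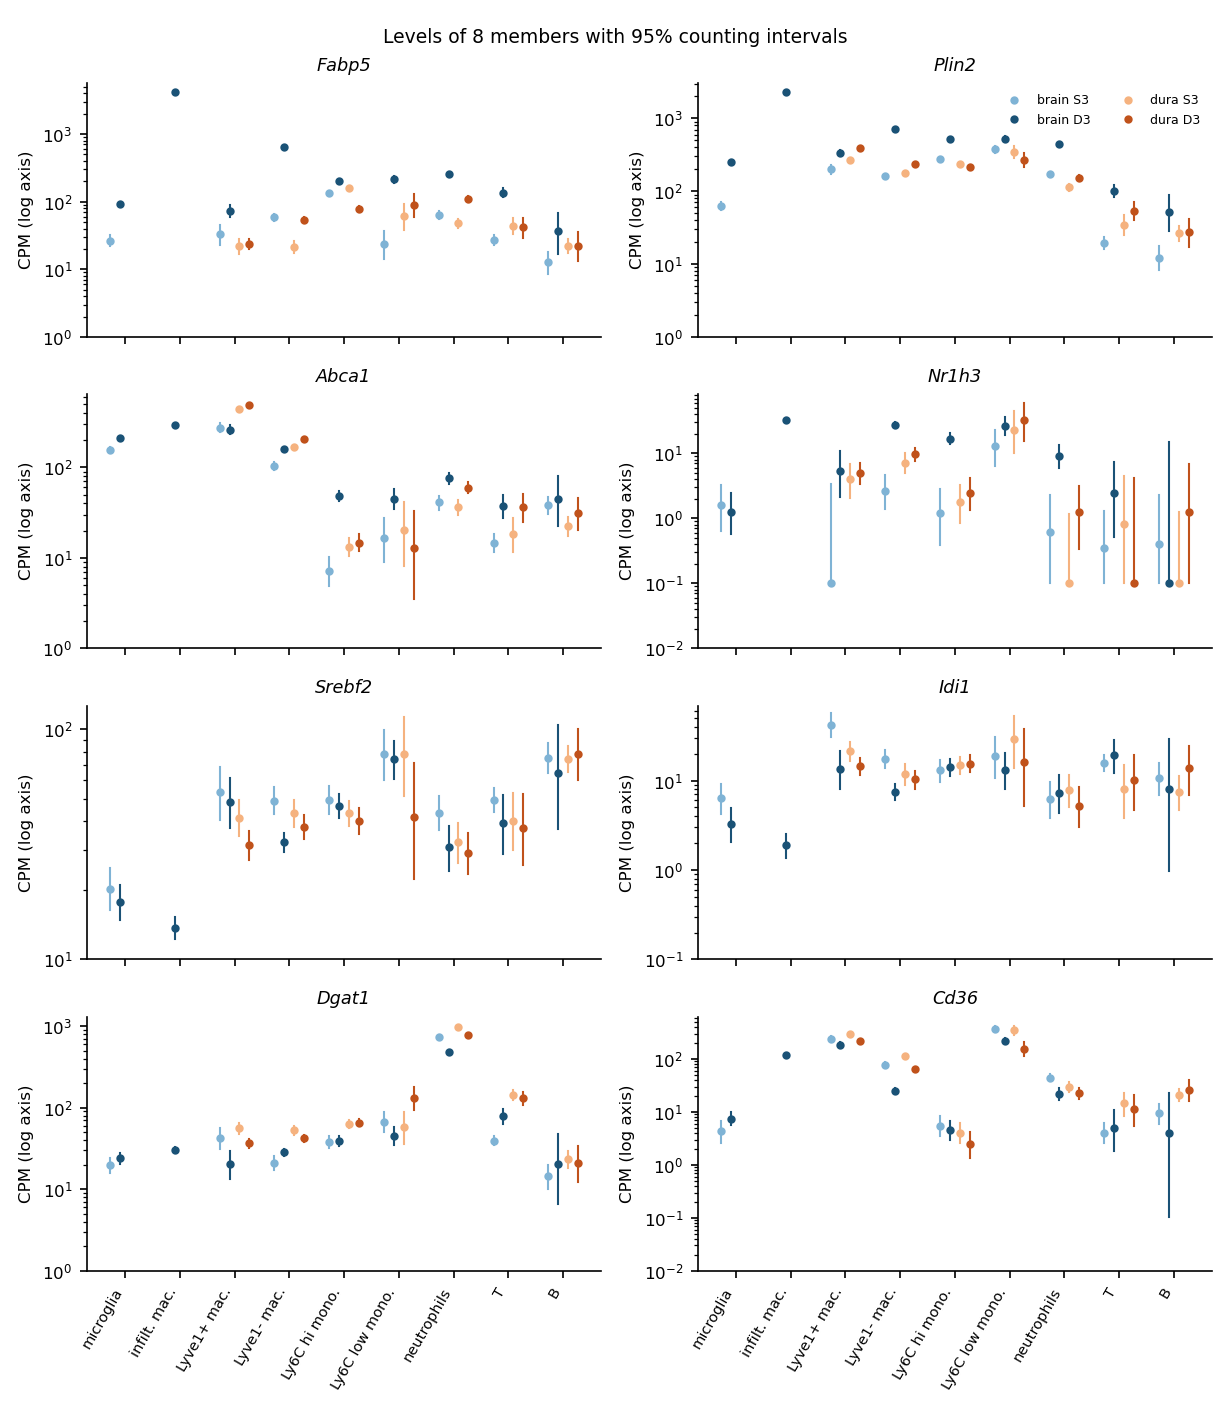
Levels of 8 genes in CPM (log axes that differ between panels) by gated class, with points coloured by library and bars for the exact Poisson 95% interval; a level of 0 is drawn at 0.1. The infiltrating-like macrophages (brain, D3) stand at 4142 CPM for Fabp5 and 2287 for Plin2, and at 1.88 for Idi1.

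The question put first was how infiltrating-like macrophages of the injured brain differ from the macrophages of the sham brain. Fabp5, a fatty acid binding protein, stood at 4142 CPM in the former against 54.1 CPM in the Lyve1+ and Lyve1- macrophage-like cells of the brain at S3, a log2 ratio of 6.26 (95% interval 6.09 to 6.42). Plin2, the coat protein of lipid droplets, stood at 2287 against 168 CPM (log2 ratio 3.76). Of the 31 genes with enough UMIs, 11 were at least 2-fold higher and 7 at least 2-fold lower, where 7.15% of 10366 genes were higher and 17.4% lower. The median log2 ratio was 0.29 over these 31 genes and −0.18 over all 10366. It was 0.96 for uptake, 0.71 for storage, 0.74 for efflux and −1.67 for synthesis, so that the synthesis median lay on the other side of 0. Of the 8 synthesis genes with enough UMIs, 6 lay below 0 and 2 above.

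Among uptake genes, 5 of 10 were higher and 1 lower. Angptl4, a secreted inhibitor of lipoprotein lipase, was counted in 619 UMIs (27.1 CPM) against 3 UMIs (0.534 CPM), a ratio whose interval runs from 4.11 to 7.95 on the log2 scale. Fabp4 was at 38.7 against 1.42 CPM (log2 ratio 4.76) and Olr1, a receptor for oxidised low-density lipoprotein, at 15.8 against 0.891 CPM (4.15). Lrp1, a large endocytic receptor for apolipoprotein E, was at 407 against 163 CPM (1.32). Acsl1, which activates long-chain fatty acids, was the gene that was lower, at 23.3 against 62.5 CPM (−1.42). Cd36 was at 120 against 109 CPM, under the 2-fold limit, as were Msr1 (0.60), Scarb1 (0.02) and Acsl4, another activating enzyme (−0.75). The uptake genes that were higher thus included receptors and binding proteins, and the activating enzyme Acsl1 was lower.

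Of 7 storage genes 2 were higher, Plin2 and Soat1, which esterifies cholesterol and was at 167 against 74.1 CPM (1.17). Plin3, Dgat1, Dgat2, Pnpla2, the first lipase of droplet breakdown, and Cpt1a, which brings fatty acids into mitochondria, lay between −0.72 and 0.86. Of 6 efflux genes 3 were higher and 1 lower. Nr1h3, the liver X receptor alpha, was counted in 738 UMIs (32.3 CPM) against 12 UMIs (2.14 CPM), a log2 ratio of 3.92 (3.1 to 4.88). Abcg1, which loads cholesterol onto high-density lipoprotein, was at 113 against 42.2 CPM (1.42) and Abca1 at 291 against 137 CPM (1.08). Pparg was at 5.08 against 15.7 CPM (−1.63), the opposite side from Nr1h3, while Ppard, a related receptor (0.39), and Nr1h2, the liver X receptor beta (0.16), stayed inside the limit.

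Of 8 synthesis genes 5 were lower and 1 higher. Idi1, an isomerase of the mevalonate pathway, was at 1.88 against 22.3 CPM (−3.56, interval −4.10 to −3.05). Sqle, the squalene epoxidase, was at 1.23 against 10.2 CPM (−3.05), and Fasn, the fatty acid synthase, at 2.15 against 9.08 CPM (−2.08). Srebf2, which encodes SREBP2, was at 13.7 against 49.9 CPM (−1.86) and Insig1 at 13.9 against 38.5 CPM (−1.47). Hmgcs1, an early enzyme of the mevalonate pathway whose upstream bases are shown above, was at 19.2 against 23.0 CPM (−0.26, interval −0.55 to 0.03), and Srebf1, which encodes SREBP1, at 20.3 against 16.6 CPM (0.29). Scd2, a desaturase, was higher, at 43.7 against 13.2 CPM (1.73). Scd1 (2 against 23 UMIs), Mgll (13 against 21) and Vldlr (0 against 0) had too few UMIs to be counted.

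**Figure D3:**
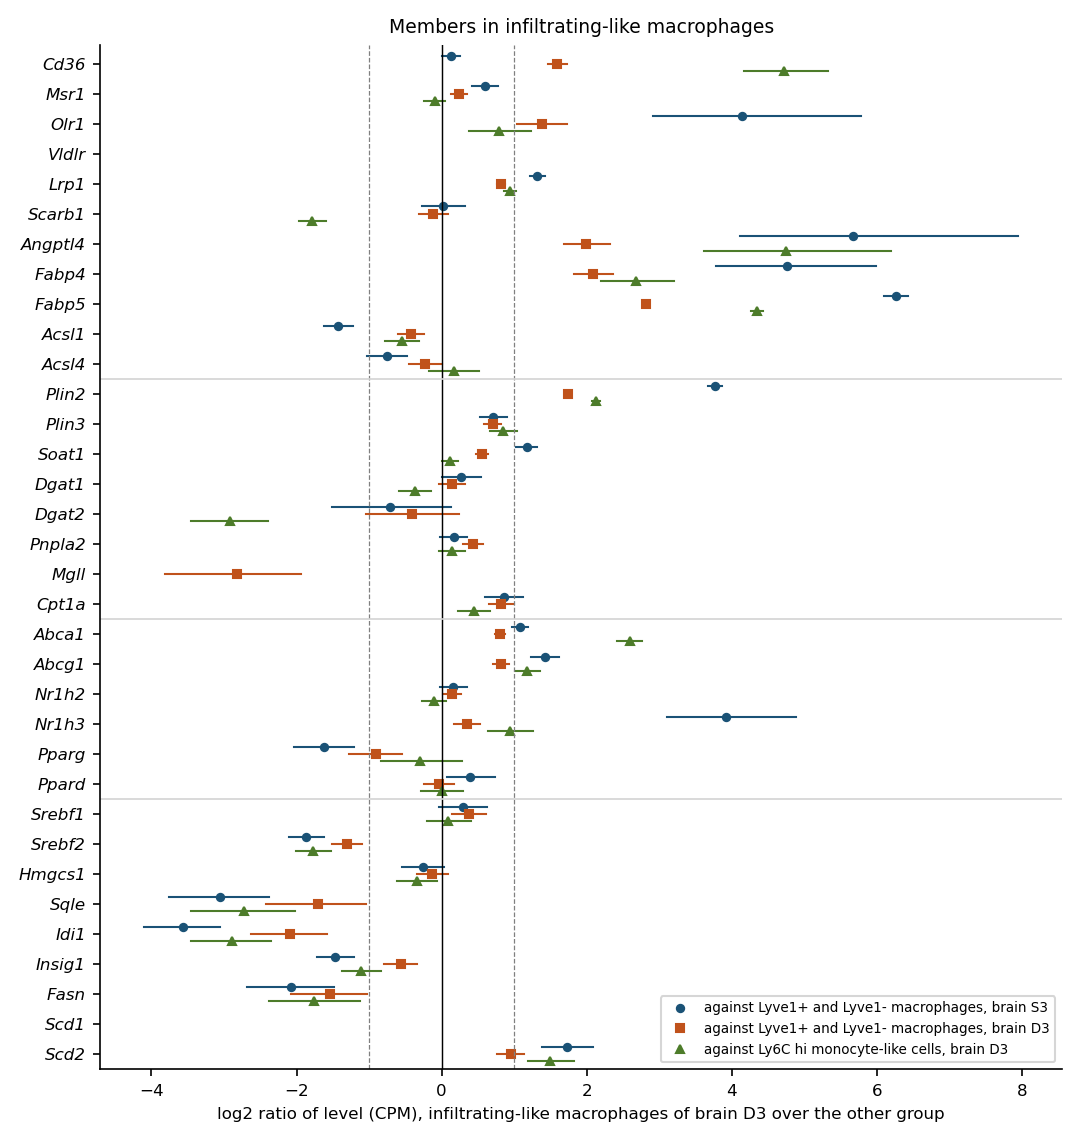
Log2 ratio of level (CPM) of infiltrating-like macrophages (brain, D3) over 3 other groups, for each gene with at least 50 UMIs; bars are exact 95% counting intervals and dashed lines mark 2-fold. Fabp5 lies at 6.26, 2.81 and 4.35, and Idi1 at −3.56, −2.09 and −2.89.

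Other genes of the same pathways were read from lists of 76 genes. Of 19 further synthesis genes 0 were at least 2-fold higher and 7 were lower, with a median log2 ratio of −0.82. Stard4, a sterol carrier, was at 1.40 against 14.8 CPM (−3.40). Hilpda, a droplet protein that blocks lipolysis, was at 633 against 18.9 CPM (5.07), and Gpat3, which starts glycerolipid synthesis, at 19.0 against 0.712 CPM (4.73). Ch25h, which makes 25-hydroxycholesterol, was at 1.05 against 24.4 CPM (−4.54) and Cyp27a1, another sterol hydroxylase, at 10.9 against 71.6 CPM (−2.72). Apoc2, an activator of lipoprotein lipase, had 118 against 2 UMIs, a log2 ratio of 3.86 with an interval of 1.97 to 6.92. Of 9 oxidation genes 0 passed 2-fold in either direction, with a median of 0.49. Of the adipocyte markers listed in a library, Plin1 was at 0 in the infiltrating-like macrophages and Adipoq and Retn summed to 0.350 CPM, while the 6 mature neutrophil markers summed to 668 CPM; the part of the latter in these ratios was not tested.

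Within the injured brain the same cells were set against neighbours of the same library. Against Lyve1+ and Lyve1- macrophage-like cells of the brain at D3, 6 of 32 genes were higher and 5 lower, where 3.57% and 9.33% of 10658 genes were. Fabp5 was at 4142 against 591 CPM (2.81) and Plin2 at 2287 against 685 CPM (1.74). Cd36, at 120 against 39.6 CPM (1.59), was among the higher genes here. Idi1, Sqle, Fasn, Srebf2 and Mgll were lower, at −2.09, −1.71, −1.54, −1.30 and −2.82. In this library 38.1% of the Lyve1- gate fell in cluster 20, which was at 1271 CPM of Fabp5 and also held 13.6% of the infiltrating-like gate. Limiting the macrophage gates to clusters 2 and 3, a choice made after the data were seen, raised the higher count to 13.

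Against Ly6C hi monocyte-like cells of the D3 brain, 8 of 31 genes were higher and 7 lower, where 11.5% and 11% of 10159 genes were. Cd36 was at 120 against 4.55 CPM (4.72) and Abca1 at 291 against 48.4 CPM (2.59). Scarb1 was at 21.7 against 74.7 CPM (−1.78) and Dgat2 at 2.06 against 15.5 CPM (−2.91). Idi1, Sqle, Srebf2, Fasn and Insig1 were lower here too, at −2.89, −2.72, −1.77, −1.76 and −1.11. The 3 comparisons share the infiltrating-like cells. Of 19 further synthesis genes, 10 were lower and 0 higher against these monocyte-like cells.

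Single cells of the infiltrating-like gate differed widely for Fabp5 and less for Plin2. Per 10000 UMIs of a cell, Fabp5 had a 10th percentile of 0.381, a median of 26.0 and a 90th percentile of 86.7. For Plin2 these were 8.33, 20.7 and 38.2. A Plin2 UMI was found in 99.9% of these cells, with a median depth of 23046 UMIs, against 28.7% of T-like cells (median 5994 UMIs) and 12.9% of B-like cells (median 3444) of the same library. With every cell thinned to 2000 UMIs the shares were 95.5%, 11% and 12.9%. Nr1h3, with a UMI in 41.0% of the infiltrating-like cells unthinned, was in 6.19% of them thinned, near the level of 1 UMI.

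**Figure D4:**
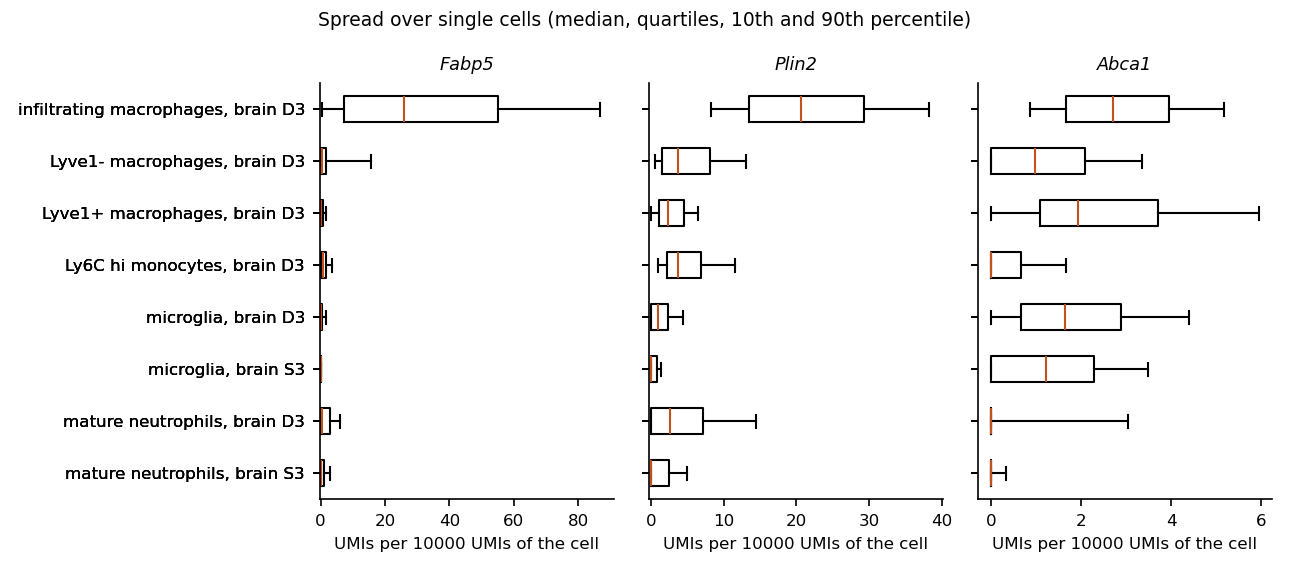
UMIs of Fabp5, Plin2 and Abca1 per 10000 UMIs of each cell in 8 classes of the brain libraries; boxes give quartiles, the coloured line the median, and whiskers the 10th and 90th percentiles. The infiltrating-like macrophages have a median of 26.0 for Fabp5 and 20.7 for Plin2.

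Microglia-like cells were compared between the injured and the sham brain. Plin2 was at 255 CPM at D3 and 62.3 at S3 (log2 ratio 2.03, interval 1.85 to 2.22), Fabp5 at 93.0 and 26.5 (1.81) and Msr1 at 17.6 and 5.48 (1.69). Angptl4 had 53 UMIs at D3 and 1 UMI at S3, a ratio with an interval of 2.49 to 10.4. These 4 of 26 genes were higher and 0 lower, where 4.21% and 2.19% of 9607 genes were. The median level of Msr1 over the 15 ranked classes of each brain library was 12.5 CPM at D3 and 5.48 at S3. In the same libraries T-like cells stood at 135 and 27.1 CPM of Fabp5 and at 101 and 19.6 CPM of Plin2, so for Fabp5 the microglia-like levels did not exceed those of T-like cells. A Fabp5 UMI was found in 32.6% of microglia-like and 31.1% of T-like cells at D3, and in 6.11% and 14.6% at 2000 UMIs per cell. With the level of T-like and B-like cells subtracted, no Fabp5 was left at D3. Its D3 level was then set to the floor of 3 UMIs, so the resulting ratio of −3.15 has no size to read.

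The microglia-like gate held different clusters at each time. Cluster 12 held 11.4% of it at S3 and 38.2% at D3, and cluster 11 the other large share, 88.3% and 61.5%. Plin2 in cluster 11 was at 42.0 CPM at S3 and 94.4 at D3, and in cluster 12 at 184 and 730, so D3 was the higher library in each. Against the T-like levels of Plin2 given above, cluster 11 lay higher at S3 but lower at D3. Cluster 12 lay higher than T-like cells in both libraries. Cells with at least 3 of 5 cycle genes made up 0.248% of the gate at S3 and 8.40% at D3, and the 6 mature neutrophil markers summed to 735 and 1411 CPM in it; their part in the ratios was not tested. Idi1, Mgll and Insig1 lay at −0.98, −0.92 and −0.91, just inside the 2-fold limit.

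In the brain, Ly6C hi monocyte-like cells had 3 of 30 genes higher at D3 and 0 lower, where 3.97% and 2.36% of 8569 genes were. Abca1 was at 48.4 CPM at D3 and 7.2 at S3 (2.75, interval 2.20 to 3.34), Nr1h3 at 16.9 and 1.2 (3.81) and Olr1 at 9.10 and 3.12 (1.55). Abca1 and Nr1h3, its regulator, were thus both above their S3 level. For Abca1, T-like cells of the same libraries were at 37.4 CPM at D3 and 14.7 at S3. B-like cells were at 44.5 CPM, on 11 UMIs, and 38.0. For Nr1h3, T-like cells had 3 UMIs at D3 and 2 at S3. Of the Ly6C hi monocyte-like gate at D3, 27.9% fell in cluster 20, a macrophage-like cluster at 193 CPM of Abca1. Cluster 0 stood at 15.5 CPM of Abca1 at D3 and 6.52 at S3. Its Nr1h3 level was 0.468 and 1.53 CPM, on 1 and 4 UMIs. The 6 markers of infiltrating macrophages summed to 2224 CPM in this gate at S3 and 3100 at D3, and their part was not tested. Fn1, which is among these 6 markers, was also a leading gene of the Ly6C hi monocyte-like gate. The brain at S3 held 0 infiltrating-like cells. In the dura mater 0 of 27 genes were higher and 1 lower, where 1.37% and 1.49% of 8847 genes were; Fabp5 was at 78.0 CPM at D3 and 158 at S3 (−1.02), but inside the limit with no cell filter (−0.82), doublets kept (−0.98), clusters in place of gates (−0.91) or median of ratios scaling (−0.97).

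Neutrophil-like cells of the brain had 3 of 26 genes higher and 1 lower at D3, where 5.55% and 2.54% of 6701 genes were. Fabp5 was at 253 CPM at D3 and 64.3 at S3 (1.98), Plin2 at 443 and 170 (1.38) and Olr1 at 19.2 and 6.87 (1.48). T-like cells of the same libraries, with the values given above, were also higher in Fabp5 and Plin2 at D3, at levels below these. Cd36, at 21.9 and 44.7 CPM (−1.03), was lower, but inside the 2-fold limit with doublets kept (−0.60) or with clusters in place of gates (−0.66). Cluster 30 held 34.9% of the gate at D3 and stood at 1136 CPM of Plin2, while cluster 21 was at 158 CPM at S3 and 225 at D3. Nr1h3 had 24 UMIs at D3 and 2 at S3, too few to be counted. Dgat1 and Dgat2 lay at −0.60 and −0.68.

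In neutrophil-like cells of the dura mater, 1 of 23 genes was higher and 1 lower, where 3.32% and 1.3% of 6327 genes were. Fabp5 was at 111 CPM at D3 and 47.7 at S3 (1.22) and Acsl1 at 44.1 and 106 (−1.26). The Fabp5 ratio was above 0 in both tissues, with 253 and 64.3 CPM in the brain.

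Macrophage-like cells of the dura mater were compared between D3 and S3. Of 32 genes, 1 was higher and 1 lower in Lyve1+ and Lyve1- macrophage-like cells together, where 0.748% and 0.906% of 10702 genes were. Angptl4 was at 4.60 CPM at D3 and 1.80 at S3 (1.35) and Scd1 at 2.79 and 5.80 (−1.06). Neither call held with clusters in place of gates (0.91 and −0.89) or with cells thinned, and Scd1 was also inside the limit with doublets kept (−0.75) and in clusters 2 and 3 (−0.72) and was not called with the stricter gate. The median log2 ratio of the 32 genes was −0.16, against −0.05 for all genes. Plin2 was at 303 and 213 CPM (0.51) and Cd36 at 133 and 182 CPM (−0.46), both inside the limit.

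By subset, Lyve1+ macrophage-like cells of the dura mater had 1 of 26 genes higher and 0 lower, where 1.18% and 1.36% of 9177 genes were: Angptl4, with 45 UMIs at D3 and 7 at S3 (1.75). Lyve1- macrophage-like cells had 1 of 28 higher and 0 lower, where 0.577% and 0.762% of 9706 genes were: Fabp5, at 52.9 and 21.5 CPM (1.30). In either subset the count of higher genes was 0 with cells thinned, with the stricter gate and in clusters 2 and 3, where the Fabp5 ratio of the Lyve1- subset was 0.94, and with clusters in place of gates that ratio was 0.71. Lpl, the lipoprotein lipase that ANGPTL4 inhibits and not one of the 34, was at 48.5 CPM at D3 and 133 at S3 in both subsets together (−1.46).

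**Figure D5:**
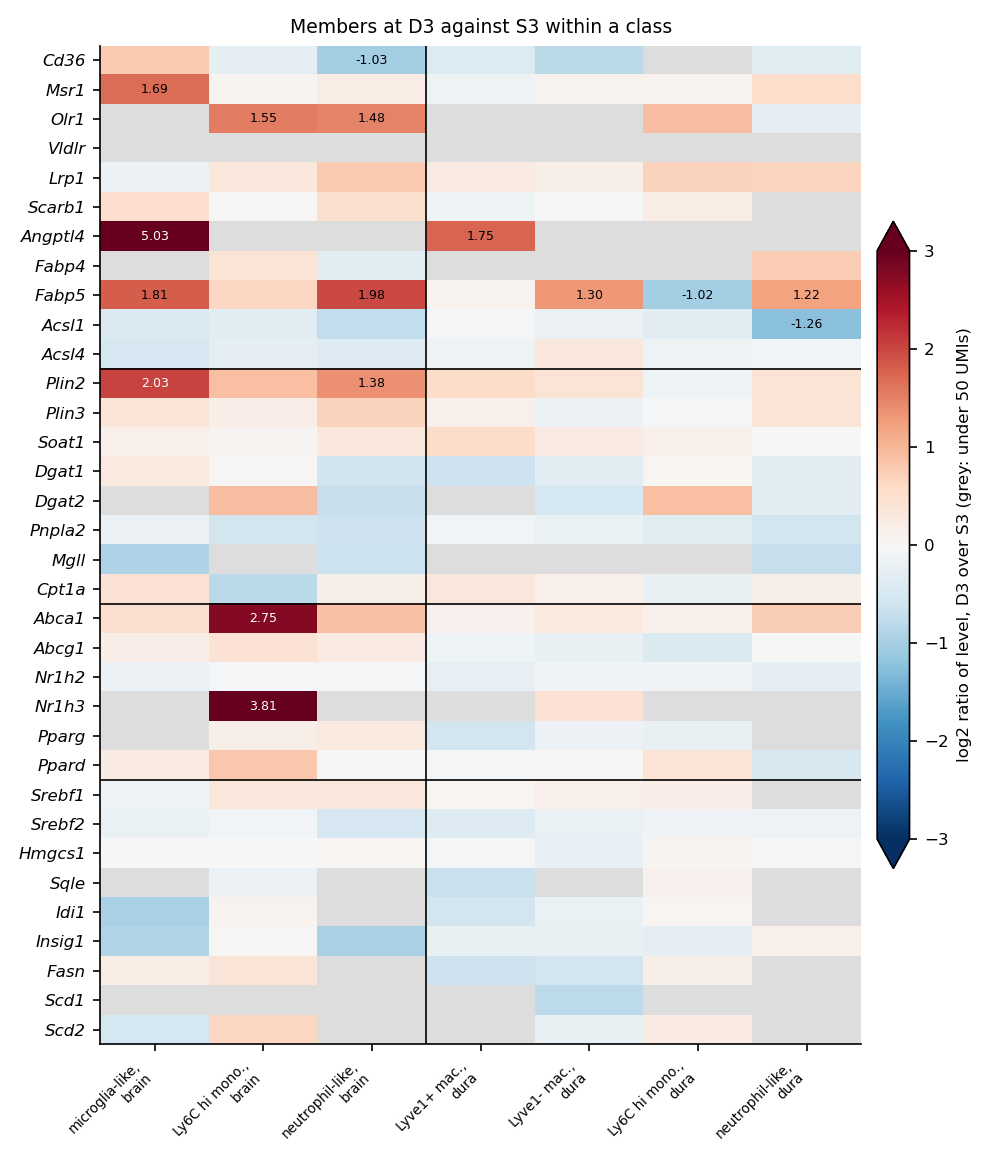
Log2 ratio of level at D3 over S3 for each gene (rows) within 7 classes and tissues (columns), with ratios of 2-fold or more printed and genes under 50 UMIs in grey. Fabp5 is at least 2-fold higher in microglia-like cells of the brain in neutrophil-like cells of both tissues and in Lyve1- macrophage-like cells of the dura mater (1.30, or 0.94 in clusters 2 and 3), and lower in Ly6C hi monocyte-like cells of the dura mater.

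Between tissues after sham surgery, macrophage-like cells of the brain had 1 of 30 genes higher and 2 lower than those of the dura mater, where 1.37% and 4.14% of 9967 genes were. Fabp5 was at 54.1 CPM in the brain and 21.7 in the dura mater (1.32), and with the gates limited to clusters 2 and 3 this ratio was −0.24. Dgat1 was at 25.1 and 54.1 CPM (−1.11). With the level of T-like and B-like cells subtracted, both Dgat1 levels were set to the floor of 3 UMIs. The ratio of 0.47 obtained that way compares no Dgat1 counts. Nr1h3 was at 2.14 and 5.93 CPM (−1.47) and Abca1 at 137 and 274 CPM, just inside the limit. All 6 efflux genes lay below 0, with a median of −0.31 where all genes had −0.18. Most genes lay below 0 here, since 71.1% of all genes lay below Mgll, whose ratio was 0.0009. Among all genes, Pparg, Nr1h2 and Ppard were at percentiles 57.2, 53.1 and 46.1. Abcg1, Abca1 and Nr1h3 were at percentiles 26.0, 4.20 and 1.44. Lyve1+ cells made up 95 of 396 macrophage-like cells in the brain and 231 of 551 in the dura mater, and their part in these ratios was not tested.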

How the data were processed

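Per the labels and the study's methods, the authors made the libraries with 10x 3' chemistry and processed the reads with Cell Ranger 3.1.0 and Seurat 3.1.0. In the deposited tables a value is ln(1 + x), a natural log, where x is the UMIs per 10000 UMIs of its cell; whole UMIs were recovered from them for 100% of values within 1e-06. Kept cells had over 1000 and under 6000 genes and no more than 7% of UMIs from mitochondrial genes, and the top Scrublet scores were removed at 0.8% per 1000 barcodes. A cell joined the class with the best mean marker score, scaled to the 90th percentile of each marker, if it reached 0.2 and led by 0.05. UMIs were summed per class and library, with exact Poisson intervals for levels and exact conditional intervals for ratios at 95%, and exact binomial ones for shares. CT was read as sham from the study's methods. With 1 library per group no test was made. The text names all 34 genes and, from the other lists, at most the 4 largest ratios per direction. A gene of the synthesis list is not reported by name here. The members and lists were chosen with earlier results of these data known. The steps were tested on simulated data. Alternatives were thinning to 2000 UMIs, no cell filter, doublets kept, clusters (Leiden, resolution 1.2) in place of gates, a stricter lead of 0.15, median of ratios scaling, subtraction of the T-like and B-like level and no UMI minimum. The promoter motifs were also chosen with the data known; Insig1 was added to the printed windows after the matches were seen. Python 3.11.15, numpy 2.4.6, scipy 1.17.1, pandas 2.3.3 and scanpy 1.11.5 were used.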

Additional observations from a re-analysis of the deposited data

Results flagged for a closer look

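In Ly6C hi monocyte-like cells 3 of the lipid genes lay on opposite sides of 0 in the brain and in the dura mater. Each had a counting interval off 0 in both tissues, and they were picked by this rule. The share of all genes that meet the same rule was not counted, so the count of 3 describes the lipid genes only. At D3 the macrophage-like cluster 20 held 27.9% of this gate in the brain and 2.80% in the dura mater. The part of that cluster in these ratios was not tested. The log2 ratio of D3 to S3 for Plin2 was 0.91 in the brain. In the dura mater it was −0.13, with an interval of −0.25 to −0.02 that includes the median over all genes of −0.05. For Fabp5 the ratio was 0.61 in the brain and −1.02 in the dura mater, and for Abcg1 it was 0.42 and −0.43. Fabp5 went from 133 to 203 CPM in these cells of the brain and from 27.1 to 135 CPM in T-like cells of the same libraries, so its rise in the brain was no larger in CPM than that of T-like cells. The Fabp5 ratio in the dura mater lay between −1.51 and −0.82 over the alternatives run. The difference between tissues was not tested, since each tissue and condition has 1 library.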

How the results depend on the processing

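Of the ratios at 2-fold or more, those that stayed there were 53 of 64 with clusters in place of gates, 62 of 65 with doublets kept, 36 of 38 thinned, 58 of 65 with the T-like and B-like level subtracted, 63 of 65 with median of ratios scaling, 62 of 65 with no cell filter, 65 of 65 with no UMI minimum and 58 of 60 with the stricter gate. With macrophage gates limited to clusters 2 and 3 it was 28 of 33, and with neutrophil gates without clusters 8 and 18 it was 5 of 5, both chosen after seeing the data. Fabp5 between tissues turned direction (−0.24) in clusters 2 and 3. Under subtraction the signs of Fabp5 in microglia-like cells (−3.15) and of Dgat1 between tissues (0.47) changed. Both of these values rest on the floor of 3 UMIs, for Fabp5 at D3 and for Dgat1 in both tissues. Neither is read as a turned direction. The causes were not tested, other than that thinning and a stricter gate leave fewer UMIs.

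Counts of higher and lower genes moved as follows. For infiltrating-like against S3 macrophage-like cells, lower genes numbered 3 thinned and 11 subtracted. Against macrophage-like cells of the same library, higher genes numbered 12 subtracted and 13 in clusters 2 and 3, and lower genes 1 thinned. Against Ly6C hi monocyte-like cells, lower genes numbered 3 thinned and 12 subtracted. In microglia-like cells higher genes numbered 2 thinned, and lower genes 2 with no cell filter, 2 by clusters and 5 subtracted. In dura macrophage-like cells higher genes numbered 0 thinned or by clusters and 3 subtracted, and lower genes 0 thinned, with doublets, by clusters, with the stricter gate or in clusters 2 and 3, and 7 subtracted. In the Lyve1+ subset higher genes numbered 0 thinned, with the stricter gate or in clusters 2 and 3, and 2 subtracted or with no minimum; lower genes numbered 2 with no cell filter and 3 subtracted or with no minimum. In the Lyve1- subset higher genes numbered 0 thinned, with the stricter gate or in clusters 2 and 3 and 3 subtracted; lower genes numbered 1 by clusters or with no minimum and 4 subtracted. In brain neutrophil-like cells higher genes numbered 6 with no minimum and 5 without clusters 8 and 18, and lower genes 0 thinned, with doublets, by clusters or without clusters 8 and 18, and 3 subtracted. In dura neutrophil-like cells higher genes numbered 0 thinned, 2 with no cell filter or without clusters 8 and 18, 3 with doublets or subtracted and 7 with no minimum; lower genes numbered 2 by clusters or with the stricter gate and 3 subtracted or with no minimum. In brain Ly6C hi monocyte-like cells higher genes numbered 1 thinned and 8 by clusters or subtracted, and lower genes 3 subtracted and 1 with no minimum. In dura Ly6C hi monocyte-like cells higher genes numbered 1 thinned or with no minimum and 4 subtracted, and lower genes 0 with no cell filter, doublets, clusters or median of ratios, 5 subtracted and 3 with no minimum. Between tissues higher genes numbered 0 thinned, by clusters or with the stricter gate, 4 subtracted and 2 in clusters 2 and 3, and lower genes 1 with median of ratios or in clusters 2 and 3 and 4 subtracted or with no minimum.

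No paired analysis was possible because each tissue and condition has 1 library, all numbered replicate 1. Leaving out a library was not run, since it empties a group.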

Other observations

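Migratory dendritic cell-like cells, 26 cells of the brain at D3, were at 4303 CPM of Fabp5 on 1119 UMIs, with an interval that overlaps that of the infiltrating-like macrophages at 4142 CPM. Plin2 had 26 UMIs in them, or 99.97 CPM, against 2287 CPM in the infiltrating-like macrophages. Cd36, Msr1 and Lrp1 had 0 UMIs, where 3 UMIs would be 11.5 CPM and the exact interval reaches 14.2 CPM.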
